A study of Mus musculus with 9 samples.

Results

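The cells described here are liver cells that carried RNA of the complement protein C1q but no RNA of 3 Kupffer cell genes. A cell entered when it had at least 200 detected genes, at least 5 UMIs (tags that count RNA molecules once each) of C1qa, C1qb and C1qc together, 0 UMIs of Clec4f, Vsig4 and Timd4, and 0 UMIs of the lymphocyte genes Cd3e and Cd79a. This gate held 397 of the 8527 cells with 200 or more genes (4.66%), and they are called the gated cells below. Because these 8 genes chose the cells, their levels are given as a description and are not tested.

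Whole livers of C57BL/6 mice were dissociated with dispase and collagenase and profiled by droplet-based single-cell RNA-seq. All mice carried the doxycycline-dependent transactivator ROSA26-rtTA-IRES-EGFP, and the study crossed these mice with Alb-CRE mice, whose recombinase acts in hepatocytes and related epithelial cells. The 2 WT libraries (genotype ROSA26-rtTA-IRES-EGFP; WT) came from mice given doxycycline food for 7 days. The tetYAP mice carried an inducible active YAP and received doxycycline food for 3 days (YAP3d, 4 libraries) or 7 days (YAP7d, 3 libraries). The macrophages themselves are outside the lineage in which the Cre is active. The labels of every sample name more than 1 version of the library kit, whereas the study's methods give a single version for libraries of entire liver tissue, so the kit of each library is not certain. The age of the mice is not given in the sources used here, and the labels do not say in words that each replicate was a separate mouse, so p-values measure the spread between libraries.

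C1qa, C1qb and C1qc encode the 3 chains of C1q, the recognition protein that starts the classical complement pathway, and tissue macrophages are its main source. Most macrophages of the healthy liver are Kupffer cells, which sit in the sinusoids and carry the lectin Clec4f, the complement receptor Vsig4 and the phosphatidylserine receptor Timd4. Other liver macrophages are found under the capsule, around the bile ducts and, after injury, as monocytes that enter from the blood and mature in the tissue. Such cells are known for Ccr2, Cx3cr1 and MHC class II genes. They acquire Kupffer genes only gradually, if at all.

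The libraries held between 281 and 2551 cells with 200 or more genes. The YAP7d libraries were the deepest, with a median of 7546, 5717 and 11471.5 UMIs per cell against 3231 to 5083 in the other 6. Scrublet called 61 cells doublets (0.715%), of which 2 were gated cells. Across libraries 46 cell barcodes occurred more than once, and 9 gated cells had a barcode that was also present in another library. The pseudogene Gm10709 was present at 340.0 to 611 CPM (UMIs of a gene scaled so that all genes of the summed cells give the same total) in YAP3d replicates 1 and 2 and the 3 YAP7d libraries, and at 3.62 to 11.2 CPM in WT and in YAP3d replicates 3 and 4. The YAP3d group is thus split by a transcript that also separates YAP7d from WT.

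The gated cells were spread unevenly. WT replicates 1 and 2 held 3 and 18, YAP3d replicates 1 to 4 held 0, 29, 5 and 10, and YAP7d replicates 1 to 3 held 44, 31 and 257. YAP7d replicate 3 therefore contributed 64.7% of them, and the 3 YAP7d libraries together 83.6%. Many cells lay at the edge of the gate. In it, 69 cells had exactly 5 C1q UMIs, 54 of them in YAP7d replicate 3. Just outside, 82 cells had 4 C1q UMIs and 285 had 1 UMI of the 3 Kupffer genes.

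RNA released from broken cells can give UMIs in droplets of any type, so the C1q UMIs of cells with the T cell gene Cd3e are given beside those of the gated cells. Of the cells with Cd3e, 0 to 7.5% per library had 5 or more C1q UMIs in 8 libraries. In YAP7d replicate 3 this share was 37.2% (110 of 296 cells, exact 95% interval 31.6 to 42.9%), at a median depth of 7211.5 UMIs in the Cd3e cells and 11630 in the gated cells. The median C1q level of the gated cells of that library was 776 CPM. It was 1533 CPM in WT replicate 2 and 4846 to 17114 CPM in the other 6 libraries with gated cells. A set with at least 2000 C1q CPM, chosen after these values were seen, is therefore given beside the whole gate and called C1q-high. It held 173 of the 397 cells (43.6%): 3 and 8 in WT, 22, 4 and 7 in YAP3d replicates 2 to 4, and 31, 24 and 74 in YAP7d. It is a range of levels and not a cell type, with 24 gated cells between 1500 and 2500 CPM. Over 2000 CPM were 0 to 3.02% of the Cd3e cells in 8 libraries and 13.5% in YAP7d replicate 3. In that library 40 of the 296 Cd3e cells were over 2000 CPM and 38 of them over 5000 CPM, while the median over the Cd3e cells was 444 CPM. Whether released RNA or mixed droplets gave these UMIs was not tested.

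**Figure D1:**
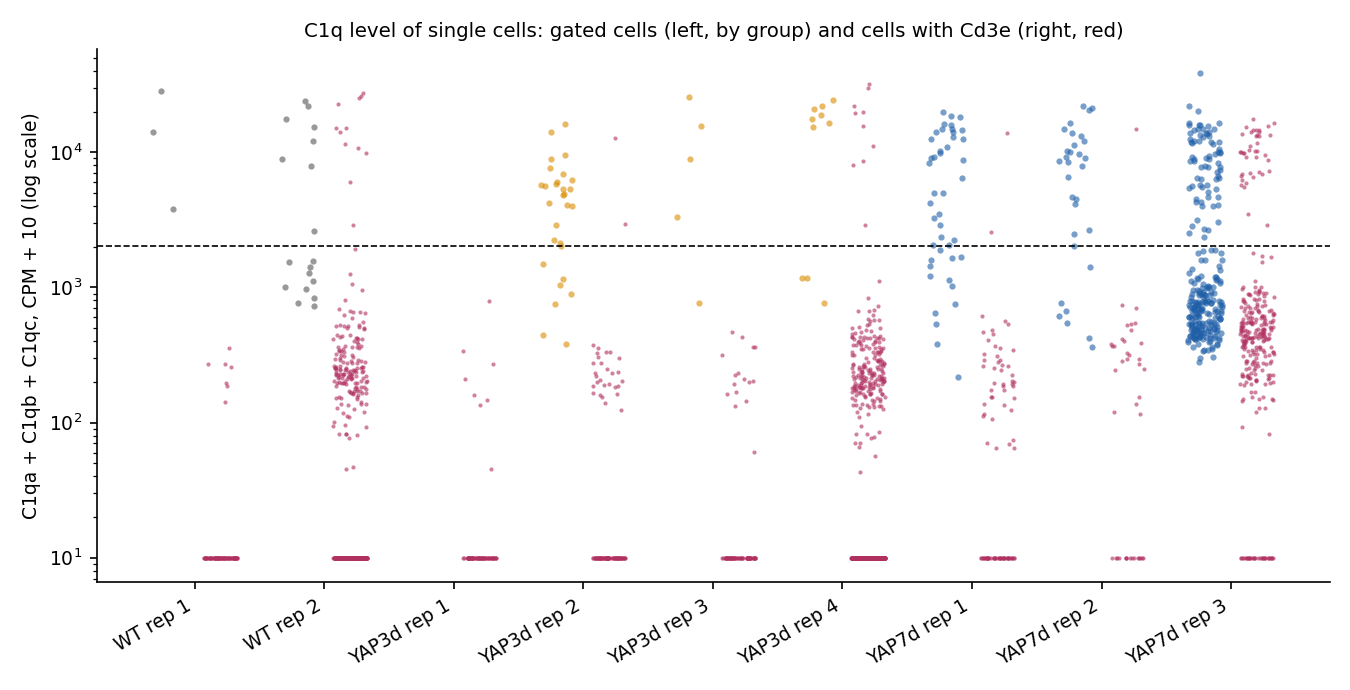
C1q level of single cells (C1qa, C1qb and C1qc together, CPM plus 10, log axis) in each library, for the gated cells (left points, coloured by group) and for cells with Cd3e (right, red); the dashed line marks 2000 CPM. Gated cells of YAP7d replicate 3 lie mostly under the line, at a median of 776 CPM, among the levels of that library's Cd3e cells.

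Grouped by their other genes, the gated cells fell into 9 clusters, given here as a description. Cluster 1 (98 cells, 93 of them C1q-high) was present in every library with gated cells and was led by Alb, the macrophage membrane gene Ms4a7, Pf4, Olfml3, Apoc1 and Hpgds. Its C1q level was the highest, with a median of 12854 CPM, and its Apoe level was 12779 CPM. Hepatocyte RNA (Alb, 426 CPM) led its list, and 8 of 9 markers of biliary epithelial cells were raised in it (1437 CPM in sum, 15.9 to 54.2 CPM in the other clusters), so it stayed unnamed. Spp1 gave 908 CPM of that sum and was found in 19.4% of the cells of cluster 1. Macrophage markers outside the gate summed to 2420 CPM there, against 1538 and 1931 CPM in clusters 2 and 3. In C1q-high cells the biliary sum was 0 to 41.8 CPM in the 6 libraries compared below, whereas over the whole gate it was 337, 34.5 and 543 CPM in YAP7d. Clusters 2 and 3 (74 and 68 cells) were monocyte-like, with 8 and 3 of 12 non-classical monocyte markers raised. Classical monocyte markers summed to 13382 and 6405 CPM in them and to 2517 CPM in cluster 1. For the non-classical markers the sums were 3019, 2144 and 1151 CPM. Cluster 2 was led by Eno3, Serpinb10 and Ace, with 66 cells in YAP7d replicate 3, whereas cluster 3, led by Ear2, Cmklr1 and Adgre4, had 19 cells in YAP3d replicate 2, 12 in YAP7d replicate 1 and 34 in YAP7d replicate 3. In cluster 3, 46 of 68 cells were C1q-high and Cd74, the invariant chain of MHC class II, reached 9527 CPM. Cluster 6 (25 cells) was led by the mitosis genes Ube2c, Mki67 and Top2a and stayed unnamed.

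The remaining clusters did not have the genes of macrophages in front. Cluster 4 (46 cells) was neutrophil-like, with S100a8 at 15907 CPM and Ngp at 2560 CPM. Cluster 5 (34 cells) was type 2 dendritic cell-like, with Cd209a at 478 CPM and Flt3 at 135 CPM. Cluster 7 (24 cells) was endothelial-like, with Clec4g at 2854 CPM, and none of its cells was C1q-high. Clusters 8 and 9 (22 and 6 cells) were NK and ILC1-like and plasmacytoid dendritic cell-like, led by Gzma and by Klk1 and Siglech. In these 5 clusters 39, 31, 11, 20 and 6 cells came from YAP7d replicate 3, and 9 of the 24 endothelial-like cells from WT replicate 2. Clusters 4, 5 and 7 to 9 go against the label of macrophages, and the cells are therefore called by their gate and not by a cell type. Csf1r, the receptor for the growth factor that keeps macrophages alive, was at 404 to 551 CPM in clusters 1, 2, 3 and 6. It was at 291 CPM in cluster 4, 138 CPM in cluster 5 and 9.42 to 28.3 CPM in clusters 7 to 9.

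**Figure D2:**
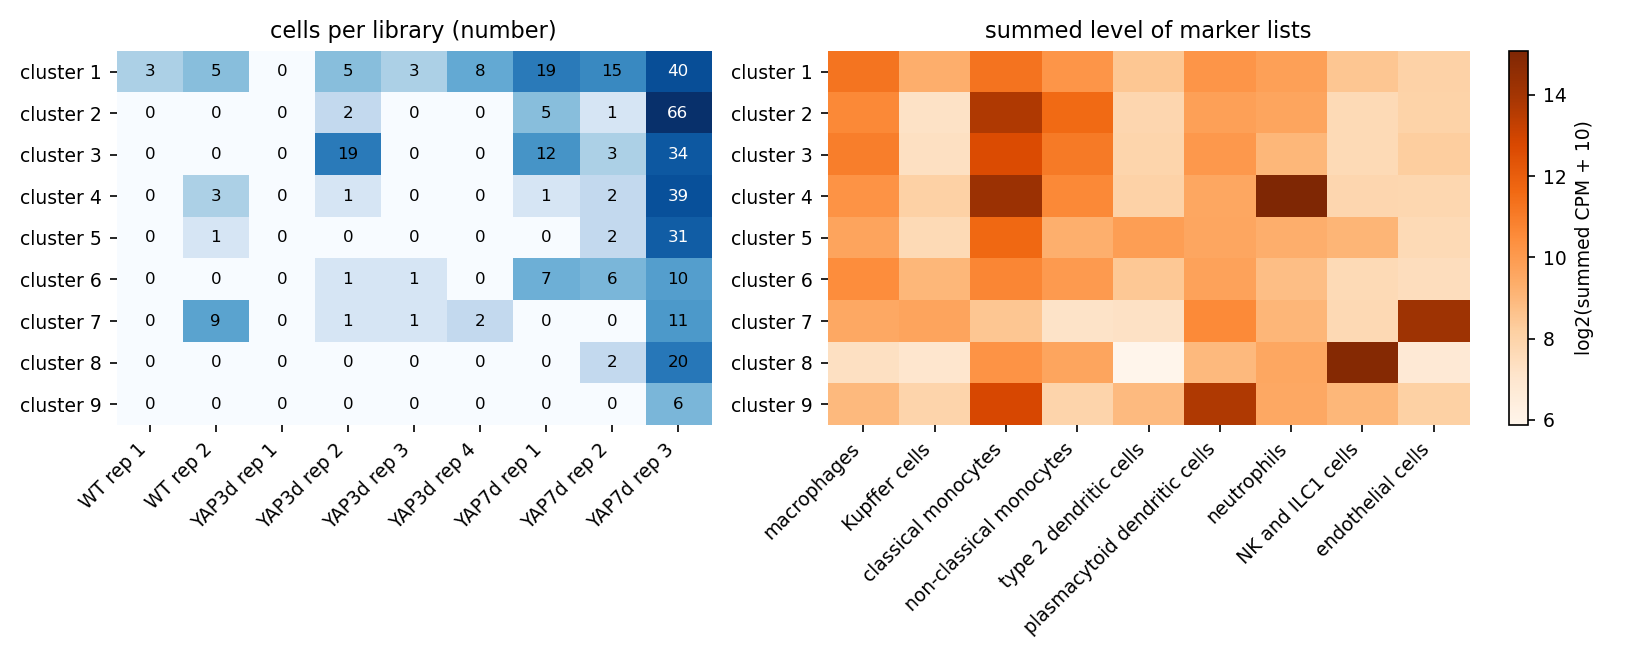
Left, number of gated cells of each cluster (rows) in each library (columns); right, summed level of fixed marker lists (columns) in each cluster, as log2 of the summed CPM plus 10. Clusters 2, 4, 5, 8 and 9 lie mostly in YAP7d replicate 3, and the neutrophil, NK and ILC1 and endothelial lists peak in clusters 4, 8 and 7.

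C1q-positive cells of at least 2000 CPM covered a wide range of Kupffer UMIs. Of these, 173 had 0 UMIs of the 3 Kupffer genes, 123 had 1, 62 had 2, 101 had 3 to 5, 45 had 6 to 10 and 70 had 11 to 20. The other 381 had 21 or more. Cells with 1 UMI counted as Kupffer cells by the gate, and 111 of the 123 came from YAP7d. In bins of under 3000, 3000 to 6000, 6000 to 12000 and 12000 or more UMIs, the share without Kupffer UMIs was 6.67, 4.17, 16.7 and 23.1% in WT, 12.8, 7.84, 20.5 and 42.9% in YAP3d and 25, 19.8, 29.5 and 14.4% in YAP7d. It was higher in both bins from 6000 UMIs up than in both below in WT and YAP3d, where bins held 13 to 51 cells, and lowest in the deepest bin of YAP7d, which held 409 cells.

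The first question was whether the gated cells took up a larger share of the captured cells after YAP induction. They made up 0.576 and 1.27% of all cells in WT, 0, 6.56, 1.18 and 0.392% in YAP3d, and 7.35, 6.72 and 14.0% in YAP7d. The 0 of YAP3d replicate 1, among 281 cells, allows a share of up to 1.07% at 3 counts (exact 95% upper limit 1.30%). Every YAP7d library lay above every WT and YAP3d library, whereas YAP3d covered the WT range. The 3 YAP7d libraries averaged 9.36% ± 4.04 (SD), the 4 YAP3d libraries 2.03% ± 3.06 and the 2 WT libraries 0.924% ± 0.492. The difference between YAP7d and YAP3d was 7.33 percentage points (exact two-sided permutation test, p = 0.0571, adjusted over 3 pairs 0.15). That between YAP7d and WT was 8.44 points, with p = 0.1, the smallest p that 3 against 2 libraries allow in this exact permutation test. YAP3d minus WT was 1.11 points (exact permutation p = 0.933), and it turned to -0.398 without YAP3d replicate 2. Over the 3 groups the exact permutation p was 0.0452 for this gate, 0.0254 with at least 3 C1q UMIs and 0.0532 with at least 10. It was 0.0683 for C1q-high cells and 0.148 when Cd5l, Marco and Folr2 also had to be at 0. Under that last gate YAP7d minus WT was 2.94 points and YAP7d minus YAP3d 2.24 points (exact permutation p = 0.143), and YAP3d overlapped YAP7d.

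The C1q-high cells gave closer YAP7d values. They were 0.576 and 0.565% of cells in WT, 0, 4.98, 0.948 and 0.274% in YAP3d and 5.18, 5.21 and 4.03% in YAP7d. YAP3d replicate 2, with 4.98%, lay within the YAP7d range. The differences were 4.24 points from WT (p = 0.1, adjusted 0.15) and 3.26 points from YAP3d (p = 0.0857, adjusted 0.15) in exact permutation tests. When cells under 3000 UMIs were left out and the rest thinned to 3000, which kept 275 of 521 cells in WT replicate 1 and all 1834 in YAP7d replicate 3, YAP7d minus YAP3d was 9.56 points over the whole gate (exact permutation p = 0.0286, the smallest possible, adjusted 0.0857). The exact permutation p over the 3 groups was 0.0111 in these thinned cells.

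Among C1q-positive cells alone the picture was different. The part without Kupffer UMIs was 9.38 and 21.4% in WT, 0, 39.7, 15.2 and 13.7% in YAP3d and 26.0, 14.4 and 33.0% in YAP7d, and all 3 groups overlapped. Exact permutation p-values were 0.4 for YAP7d against WT, 0.543 against YAP3d and 0.933 for YAP3d against WT (adjusted 0.814, 0.814 and 0.933). A shift from Kupffer cells toward gated cells was therefore not detectable with these libraries. In YAP3d replicate 2, which had the highest value over the whole gate without thinning, 29 of 73 C1q-positive cells lacked Kupffer UMIs.

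**Figure D3:**
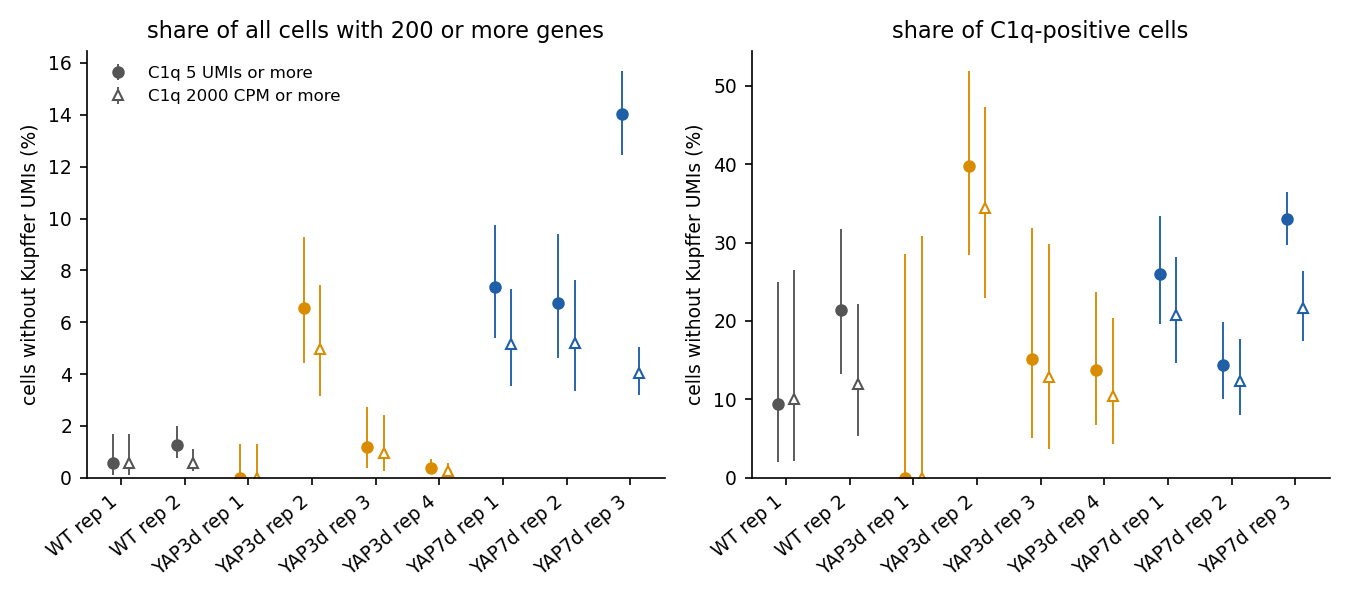
Gated cells as a share of all cells (left) and of C1q-positive cells (right) in each library, for the whole gate (filled circles) and C1q-high cells (open triangles); bars are exact 95% binomial intervals, which cover counting error only, grey is WT, orange YAP3d and blue YAP7d. On the left the YAP7d circles at 7.35, 6.72 and 14.0% stand above all others, and on the right the circles of all groups overlap. The YAP7d triangles on the right (20.8, 12.3 and 21.6%) lie above those of WT (10 and 11.9%), and the YAP3d triangles overlap both.

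Gated cells were next compared with the Kupffer cells of the same livers, which passed the same gate but had at least 1 UMI of Clec4f, Vsig4 or Timd4 (1072 cells). The test was edgeR's over the sums of each library, with the library as a block, in the 6 libraries with 10 or more cells of both kinds. Genes of MHC class II presentation, which displays peptides to CD4 T cells, were higher in the gated cells. H2-Eb1 was at 3254 CPM in WT replicate 2, 2847 and 7684 CPM in YAP3d replicates 2 and 4, and 2555, 2881 and 2097 CPM in YAP7d. Kupffer cells of these libraries had 1751, 297 and 1222, and 552, 366 and 1284 CPM. Gated cells were above in all 6 libraries, with the narrowest gap in YAP7d replicate 3 and WT replicate 2. The Kupffer cells of YAP7d replicate 3 stood apart: their median C1q level was 2470 CPM against 7095 to 15268 CPM in the other 5 libraries, and the summed level of 24 Kupffer identity genes outside the gate was 5180 CPM against 9082 to 16471 CPM. Of the 285 cells with a single UMI of the 3 Kupffer genes 217 were in that library, where 43.6% of the Cd3e cells had such a UMI (9.80 to 40% in the other 5). The part of this in the narrow gaps was not tested. The log2 fold change was 2.14 ± 0.31 (SE, adjusted p = 0.00201), and 2.61 ± 0.22 in C1q-high cells (adjusted p = 1.23e-06). In every edgeR comparison of C1q-high cells with Kupffer cells, the Kupffer cells also had at least 2000 C1q CPM (782 of the 1072). Endothelial markers were lower in the gated side of that comparison in all 6 libraries (163 to 954 CPM in sum against 286 to 5330 CPM), and their part was not tested.

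H2-Aa (1.92 ± 0.27), H2-Ab1 (1.82 ± 0.29) and Cd74 (1.88 ± 0.28) rose by log2 fold changes of similar size, each in 6 of 6 libraries. H2-DMa (0.81 ± 0.21, adjusted p = 0.0324) and H2-DMb1 (1.06 ± 0.28, adjusted p = 0.0347), which help to load the peptide, rose less and in 5 of 6 libraries. Of 11 listed class II genes 7 were tested, 6 rose and 0 fell, with a median of 1.82 against 0.01 over all genes tested. Over all 5075 genes 231 were higher (4.55%) and 202 lower (3.98%) in gated cells. In C1q-high cells 6 of 6 tested class II genes rose (median 2.31), against 189 of 4321 genes (4.37%) higher and 207 (4.79%) lower. The dendritic cell-like cluster 5 had the highest Cd74 level (33988 CPM), and its part in these values was not tested.

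Class II genes share a promoter module that includes a Y box, bound by the factor NF-Y. The letters GATTGG or their reverse complement CCAATC were searched on both strands in the 150 bases before the start of each gene, a window that holds them in 10.9% of 32851 RefSeq promoters of GRCm38.p6. They are shown for 3 of the genes above, picked after the values were known, in the gene's 5′ to 3′ direction with the match in capitals. H2-Aa lies on the minus strand (chr17:34287824-34287973), H2-Eb1 (chr17:34305717-34305866) and H2-DMb1 (chr17:34153041-34153190) on the plus strand. The first match began 49, 60 and 62 bases before the start, and H2-Eb1 held a second one. H2-DMa, also named above, had no match in the 150 bases. At 1 of its starts there were 0 matches, and at another the only match lay 199 bases before the start.
H2-Aa: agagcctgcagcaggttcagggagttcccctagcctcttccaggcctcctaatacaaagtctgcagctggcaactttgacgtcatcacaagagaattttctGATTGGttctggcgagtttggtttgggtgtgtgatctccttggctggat
H2-Eb1: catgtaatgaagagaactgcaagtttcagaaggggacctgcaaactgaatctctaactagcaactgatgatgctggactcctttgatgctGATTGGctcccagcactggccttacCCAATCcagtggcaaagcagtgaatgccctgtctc
H2-DMb1: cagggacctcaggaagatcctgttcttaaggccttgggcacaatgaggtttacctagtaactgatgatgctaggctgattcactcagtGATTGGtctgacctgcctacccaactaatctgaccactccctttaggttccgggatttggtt
A match of letters is a description of the window and says nothing of binding in these cells.

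Genes of monocytes formed the second group. Ccr2, the receptor that brings monocytes out of the marrow, was at 96.8 CPM in gated cells of WT replicate 2, 577 and 571 CPM in YAP3d replicates 2 and 4, and 398, 367 and 270 CPM in YAP7d. In Kupffer cells it was at 76.3, 102 and 9.28, and 61.7, 103 and 205 CPM. It was higher in gated cells of all 6 libraries, by 1.98 ± 0.43 (adjusted p = 0.0154) and in C1q-high cells by 2.25 ± 0.35 (adjusted p = 0.000425), with the smallest gaps in WT replicate 2 and YAP7d replicate 3. Without YAP3d replicate 2, YAP7d replicate 1 or YAP7d replicate 2 the adjusted p over the whole gate rose to between 0.0626 and 0.0769, with log2 fold changes of 1.80 to 2.03.

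Cx3cr1, the fractalkine receptor of patrolling monocytes and resident macrophages, rose by 1.20 ± 0.29 (adjusted p = 0.0235) and by 1.53 ± 0.25 in C1q-high cells. In YAP7d replicate 3 it was lower in gated cells over the whole gate (127 against 152 CPM). The call over the whole gate was lost without YAP3d replicate 2 (adjusted p = 0.101), YAP3d replicate 4 (0.0573), YAP7d replicate 1 (0.0913) or YAP7d replicate 2 (0.0797), with log2 fold changes of 0.98 to 1.25. Of 18 tested genes of the monocyte list 9 rose and 0 fell (median 1.38), and in C1q-high cells 9 of 17 rose. Examples are Chil3 (2.56 ± 0.46), S100a4 (1.84 ± 0.27), S100a6 (1.85 ± 0.29) and Ly6c2 (2.18 ± 0.36). Itgax, the integrin CD11c of dendritic cells and capsular macrophages, rose by 2.09 ± 0.30 in C1q-high cells. Of 8 tested genes of the capsular macrophage list 6 rose, whereas the lectin Cd207 fell. Neutrophil markers were at 6109 CPM in sum in gated cells of YAP7d replicate 3, against 81.9 to 826 CPM in the other 5 libraries of this comparison, and at 2478 CPM in Kupffer cells of that library. Of 12 such markers 2 were tested and 0 called, and without YAP7d replicate 3 Ccr2 and Cx3cr1 kept their calls.

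Chemokine genes formed the third group, with 8 of 20 tested genes higher and 1 lower. Ccl3 rose by 1.42 ± 0.24 and Ccl4 by 1.12 ± 0.19, and both encode attractants of T cells and monocytes. NK cells express both as well, and NK markers moved with them: 12 of these summed to 797 CPM in gated cells of WT replicate 2, 115 and 688 CPM in YAP3d and 136, 2842 and 2379 CPM in YAP7d, and to 342, 102 and 294, and 82.1, 297 and 1150 CPM in Kupffer cells. Of 3 tested NK markers 2 were higher, Nkg7 and Ccl5, and Ccl5 is also in the chemokine list. In C1q-high cells, of which 1 was in the NK-like cluster 8, the NK sum was 122 to 915 CPM against 65.6 to 301 CPM in Kupffer cells, and higher in 5 of 6 libraries. Ccl3 and Ccl4 rose there by 1.71 ± 0.21 and 1.30 ± 0.19. The part of NK cells over the whole gate was not tested. Ccl24, an eosinophil attractant, fell by 3.50 on the log2 scale. Immediate early genes, which respond within minutes to tissue handling as well as to stimuli, also moved: 9 of 20 tested rose and 0 fell, among them Fos (0.69 ± 0.15). In C1q-high cells the interleukin gene Il1b rose by 1.40 ± 0.30. Over the whole gate it missed the threshold (1.08 ± 0.35, adjusted p = 0.0839).

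Genes that go with Kupffer identity were lower. Since the cells were separated by 3 such genes, this direction was partly set by the gate, and the values are a description. Cd5l, a secreted scavenger protein of Kupffer cells, was at 387 CPM in WT replicate 2, 33.8 and 13 CPM in YAP3d and 158, 371 and 171 CPM in YAP7d. Kupffer cells had 2489, 2039 and 3280, and 3216, 4559 and 1298 CPM. Of 21 such genes outside the gate 19 were lower and 0 higher, with a median of -1.72. The scavenger receptor genes Cd163 and Marco had log2 fold changes of -3.22 and -4.41, the complement gene C6 -4.49, the lectin gene Fcna -4.14 and Folr2, a folate receptor gene, -3.48. Id3, a transcription factor of Kupffer cells, was at -0.09 ± 0.13.

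Iron and lipid handling are tasks for which Kupffer cells are known, and part of these lists was lower. Of 12 tested iron genes 6 fell and 0 rose (median -0.60), among them Slc40a1, the iron exporter ferroportin (-3.42 ± 0.29), and the heme oxygenase gene Hmox1 (-1.18 ± 0.24), each in 6 of 6 libraries. Of 17 lipid genes 7 fell and 0 rose (median -0.60). Apoe, which holds most of the UMIs of the lipid list, did not fall (0.48 ± 0.19, not called), and the summed lipid level was higher in gated than in Kupffer cells in 3 of the 6 libraries. They include Nr1h3, the liver X receptor (-1.45 ± 0.23), the lipoprotein lipase gene Lpl (-1.69 ± 0.23) and the cholesterol exporter gene Abca1 (-1.08 ± 0.25). Cd163, Slc40a1, Apoc1, Nr1h3 and Spic also go with Kupffer identity, so that their direction too was partly set by the gate. Transcription factor genes moved both ways, 6 of 24 up and 5 down. Klf4 (0.93 ± 0.24) and Nr4a1, a factor needed by non-classical monocytes, rose in 5 of 6 libraries, and Id1 (-0.89 ± 0.23) and Spic, a factor of iron-recycling macrophages, fell. Nr4a1 is an immediate early gene as well.

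Genes shared by tissue macrophages split. Of 24 tested, 5 rose and 6 fell, and in C1q-high cells 7 rose and 6 fell. Lyz2 (0.81 ± 0.12), Cd14 (1.05 ± 0.23) and Itgam (0.88 ± 0.16) rose. Adgre1, which encodes a surface antigen of mature macrophages, fell (-0.93 ± 0.16), as did the mannose receptor gene Mrc1 (-1.10 ± 0.29, 5 of 6 libraries). The call for Mrc1 was lost without any 1 of YAP3d replicates 2 and 4 and the 3 YAP7d libraries (adjusted p 0.0523 to 0.123, log2 fold changes of -1.19 to -0.87). Csf1r (-0.33 ± 0.13, adjusted p = 0.150) and Trem2 (0.47 ± 0.24, adjusted p = 0.284) did not pass. The lysosomal protease genes Ctsd (-1.17 ± 0.15) and Ctsb (-0.87 ± 0.13) fell. Apoe, the lipid carrier, rose in C1q-high cells (0.80 ± 0.16, adjusted p = 0.00314, 5 of 6 libraries), and over the whole gate it was at 0.48 ± 0.19 (adjusted p = 0.142). None of 18 tested type I interferon genes passed.

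**Figure D4:**
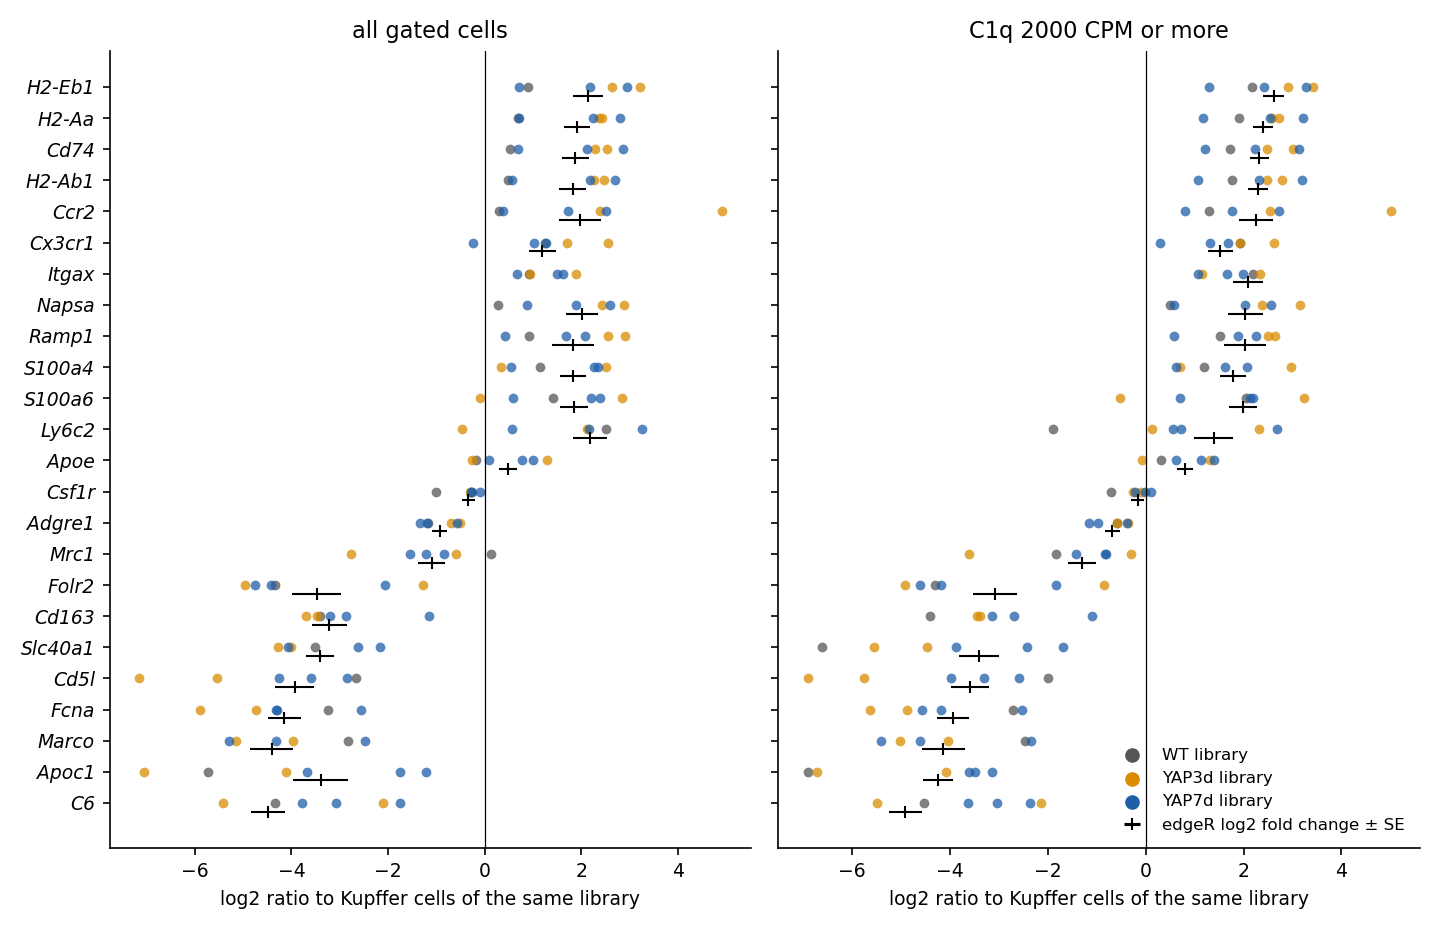
Log2 ratio of gated cells to Kupffer cells of the same library for named genes, over the whole gate (left) and for C1q-high cells (right); points are the 6 libraries coloured by group (grey WT, orange YAP3d, blue YAP7d) and black bars the edgeR log2 fold change ± SE. H2-Eb1, H2-Aa, Cd74, H2-Ab1 and Ccr2 lie right of 0 in every library, and Marco, Fcna and C6 left of it.

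The number of genes called against Kupffer cells was 433. It was 241 without YAP3d replicate 2, 161 without YAP7d replicate 1 and 191 without YAP7d replicate 2, and with each library left out in turn no called gene that was still tested changed sign. Of the 433 genes 286 were also called in C1q-high cells, which is 66.1% of the first and 72.2% of the second list. When Cd5l, Marco and Folr2 also had to be at 0, 240 genes were called.

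Only 3 libraries held 10 or more monocytes as well (Ccr2 and Lyz2 but no C1q), namely YAP3d replicates 2 and 4 and YAP7d replicate 1. Of 2485 genes 38 were higher in gated cells (1.53%) and 26 lower (1.05%). Class II genes rose again, 5 of 6 tested. H2-Aa was at 3593, 10579 and 3050 CPM in gated cells of these libraries and at 1715, 1146 and 170 CPM in monocytes (2.71 ± 0.47, adjusted p = 0.0115). The tetraspanin gene Cd81 was at 307, 1298 and 612 CPM against 30.1, 215 and 42.6 CPM (3.14 ± 0.33, adjusted p = 0.000186). Both were higher in 3 of 3 libraries.

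Ccl7, a monocyte attractant, rose by 4.13 ± 0.46, the phospholipid transfer gene Pltp by 3.59 ± 0.53, the liver X receptor gene Nr1h3 by 2.68 ± 0.48 and the scavenger receptor gene Cd36 by 2.74 ± 0.57. The acute-phase gene Hp (-2.74 ± 0.56), Anxa1 (-2.65 ± 0.39) and Chil3 (-1.96 ± 0.27) fell. Ly6c2 stood at 227 CPM against 1167 CPM on average and missed the threshold (-2.24 ± 0.61, adjusted p = 0.0844). Nr1h3 and Pltp were lower in gated cells than in Kupffer cells and higher than in monocytes. These calls rest on few libraries. Cd36 was at 4.72 without YAP3d replicate 4, and the calls of Cd81, Hp, Anxa1 and Chil3 were lost without YAP3d replicate 2 and those of H2-Aa, Pltp, Nr1h3, Cd36 and Chil3 without YAP7d replicate 1. In all, 5 genes were called without YAP3d replicate 2 and 5 without YAP7d replicate 1, and 35 without YAP3d replicate 4. In C1q-high cells, with WT replicate 2 added, 16 of 1127 genes were higher (1.42%) and 18 lower (1.6%). Cd81 (3.50 ± 0.30) and Hp (-4.02 ± 0.34) were among them.

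Between groups, gated cells of 6 libraries with 10 or more such cells were compared, which left WT replicate 2 (18 cells) as the only WT library. Its spread is assumed to be that of the other groups. From WT to YAP7d 0 of 5900 genes rose and 42 fell (0.712%) in edgeR, with 782 genes at an unadjusted p under 0.05 and 35 called by DESeq2. Prg4, which encodes the lubricant proteoglycan 4, was at 1422 CPM in WT replicate 2, 118 and 0 CPM in YAP3d replicates 2 and 4 and 0 CPM in the 3 YAP7d libraries. With a floor of 3 counts over the group it was at least 1897-fold lower in YAP7d (edgeR adjusted p = 0.00325), a bound that was 353-fold without YAP7d replicate 3, the deepest library. Alox15, a lipoxygenase gene of resident peritoneal macrophages, was at 1281, 61.9 and 0, and 0, 0 and 1.54 CPM. Saa3, an acute-phase serum amyloid gene, was at 2368, 107 and 0, and 0, 0 and 35.3 CPM. WT replicate 2 stood above every other library in each.

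Few cells carried these transcripts. In WT replicate 2 the same number, 3 of 18 gated cells, had 3 or more UMIs of Prg4, of Alox15 and of Saa3, all 3 of them C1q-high, and 1 cell held 106 of the 191 Prg4 UMIs. In YAP3d replicate 2 a single cell of 29 held all 42 Prg4 UMIs. Of the 66 Kupffer cells of WT replicate 2, 8 also had 3 or more UMIs of these genes. The 3 gated cells of WT replicate 1 had 0. The comparison sets WT replicate 2 against the rest, so that group and library cannot be told apart. Other genes that fell were Ptgis (at least 258-fold lower, and at least 48.1-fold without YAP7d replicate 3), the complement gene C4b (-7.53 ± 0.65), Serpinb2 (-6.43 ± 0.66), the neutrophil attractant gene Cxcl1 (-5.99 ± 0.58) and the endothelial genes F8 and Wnt2 (-6.21 ± 0.95 and -5.81 ± 0.96). Prg4 and Ptgis had 191 and 26 UMIs in WT replicate 2 and 0 in YAP7d. Between WT and YAP7d, only WT could therefore bring them through the expression filter. Wnt2 turned to 2.03 when the presence of Gm10709 was a term of the fit, was at -9.34 without YAP7d replicate 3 and lost its call without YAP7d replicate 2 (adjusted p = 0.182), as did Saa3 (adjusted p = 0.189).

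**Figure D5:**
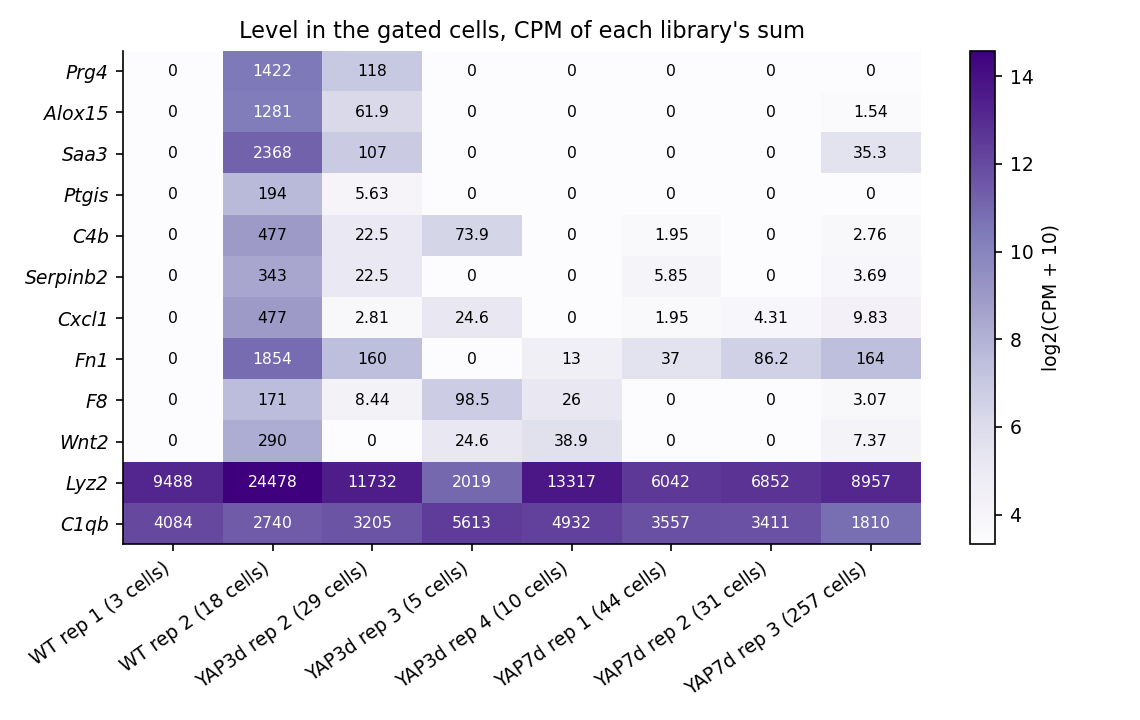
Level in the sum of gated cells of each library (columns, with the number of cells) for genes that fell in YAP7d and for Lyz2 and C1qb, as CPM (numbers) and log2 of CPM plus 10 (shade). Prg4, Alox15 and Saa3 stand at 1422, 1281 and 2368 CPM in WT replicate 2 and at 118 CPM or less elsewhere.

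Endothelial RNA moved with this comparison. The summed level of 14 endothelial markers was 11185 CPM in gated cells of WT replicate 2 and 156, 203 and 739 CPM in YAP7d, and 14 of the 18 cells had 3 or more UMIs of Clec4g, Kdr or Ptprb. In C1q-high cells, where WT replicate 2 has 8 cells, 0 of 4542 genes rose and 47 fell (1.03%). Prg4 and Alox15 were again among them, and 5 of the 8 cells had 3 or more such endothelial UMIs. Of these 8 cells 3 lay in cluster 4, whose leading genes include Saa3 and Slpi, 1 in cluster 5 and 4 in cluster 1, whereas 2 of the 129 C1q-high cells of YAP7d lay in cluster 4. The 12 neutrophil markers summed to 111 CPM in the 8 cells, with 8 markers at 0. The part of the clusters in this comparison was not tested. The summed level of 21 immediate early and heat shock genes, which respond to tissue handling, was 21864 CPM in gated cells of WT replicate 2 and 10710, 8870 and 9215 CPM in YAP7d, with 0 of the 21 called, and in Kupffer cells 16366 against 8020, 6908 and 8084 CPM. The part of endothelial RNA and of handling in the whole-gate result was not tested. The count of 42 was 14 without YAP7d replicate 2 and rose to 101, 119, 76 and 65 without YAP3d replicate 2, YAP3d replicate 4, YAP7d replicate 1 and YAP7d replicate 3. It was 2 with the presence of Gm10709 as a term.

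YAP3d against WT gave 0 genes higher and 1 lower of 5900 (0.0169%), Cxcl1 (-7.67 ± 0.94), with 463 genes at an unadjusted p under 0.05 and 8 called by DESeq2. It was not called without YAP3d replicate 2 (where it was at -11.60), YAP3d replicate 4 or YAP7d replicate 2, and 9 genes were called without YAP7d replicate 1. In C1q-high cells 31 genes fell (0.683%). YAP7d against YAP3d gave 0 genes in either direction, with 245 at an unadjusted p under 0.05 and 4 called by DESeq2. Without YAP3d replicate 2, YAP3d replicate 4 or YAP7d replicate 1 the count was 2, 2 and 8.

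In C1q-high cells 1 gene rose from YAP3d to YAP7d (0.022%). It was Cd5l, at 28.6 and 19.1 CPM in YAP3d replicates 2 and 4 (8 and 1 UMIs) and 203, 484 and 340 CPM in YAP7d (3.69 ± 0.58, adjusted p = 0.00881), with WT replicate 2 at 710 CPM. The groups of tetYAP livers did not overlap. The cells compared lay in different clusters: in YAP3d replicate 2, 14 of 22 C1q-high cells were in the monocyte-like cluster 3 and 5 in cluster 1, whereas cluster 1, led among others by Folr2 and Apoc1, held 7 of 7 in YAP3d replicate 4, 18 of 31 and 15 of 24 in YAP7d replicates 1 and 2 and 38 of 74 in YAP7d replicate 3. The C1q-high Kupffer cells of the same libraries had 2094 and 3491, and 3346, 4906 and 2109 CPM. The share of Cd3e cells with any UMI of the 3 Kupffer genes was 9.80 and 12.5% in these YAP3d libraries and 24.7, 40 and 43.6% in YAP7d, and its part was not tested. Prg4, Saa3, Alox15 and the chemokine gene Ccl8 were lower (0.0881%). They are named because they are few, and in each of them the values of the YAP3d and YAP7d libraries overlapped.

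Whether the groups differed more in gated cells than in Kupffer cells was tested as an interaction within livers. Over the whole gate 0 of 5075 genes passed for YAP7d against WT and 0 for YAP7d against YAP3d, with 334 and 359 at an unadjusted p under 0.05 and 0 and 1 called by DESeq2. In C1q-high cells 2 of 4321 genes (0.0463%), Pmp22 and Gm12840, passed for YAP7d against WT, both with a larger fall in gated cells. Over the whole gate, changes of gated cells that differ from those of Kupffer cells were not detectable.

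Cells with UMIs of mitosis genes were counted last. No such count in Cd3e cells is given beside it, so the part of released RNA is not known and the counted cells are not called dividing. Cluster 6, which is led by mitosis genes, held 7, 6 and 10 gated cells of YAP7d replicates 1 to 3. With cells thinned to 3000 UMIs and shallower ones left out, the share of gated cells with at least 3 UMIs of 28 mitosis genes was 5.56% in WT replicate 2, 18.5 and 12.5% in YAP3d replicates 2 and 4, and 45.2, 60.7 and 45.1% in YAP7d. The 3 YAP7d libraries stood above the other 3. The mean was 50.4% ± 8.96 in YAP7d (SD, n = 3) and 15.5% ± 4.26 in YAP3d (n = 2), a difference of 34.9 points with an exact permutation p of 0.1, the smallest possible. Against the 1 WT library the difference was 44.8 points, where the exact permutation test cannot go below 0.25. Without thinning the shares were 22.2% in WT, 72.4 and 30% in YAP3d and 86.4, 77.4 and 92.2% in YAP7d.

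Kupffer cells had 8.93% in WT, 43.3 and 3.85% in YAP3d and 58.7, 52.6 and 54.8% in YAP7d, counted in the same way, and C1q-high cells had 12.5, 10 and 20, and 48.3, 57.1 and 55.4%. Hmgb2 and Stmn1, which other cells also express, held 35.9 and 13.7% of the mitosis UMIs of gated cells. Without Hmgb2, Stmn1 and Cks2, a choice made after this was seen, shares were 0% in WT, 7.41 and 0% in YAP3d and 23.8, 32.1 and 12.5% in YAP7d. YAP7d stayed above the other libraries (19.1 points over YAP3d, exact permutation p = 0.2). In YAP3d replicate 2 the same count was 40% in Kupffer cells and 7.41% in gated cells, which were otherwise close in size (30 and 27 cells). Mki67 and Top2a missed the threshold between gated and Kupffer cells in edgeR (-0.64 ± 0.33 and -0.71 ± 0.30, adjusted p = 0.276 and 0.176). Of 20 tested DNA replication genes 8, among them Mcm3 and Rrm2, were lower in gated cells, against 202 of all 5075 genes (3.98%).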

How the data were processed

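Reads were aligned to mm10 and counted by the authors with Cell Ranger, and the deposited table holds counts of UMIs per gene (27998) and cell (8562). The labels' processing notes also name Seurat version 2. The members and the gene lists were chosen with earlier results of these data known. Cells with under 200 genes (35) were left out, doublets were called with Scrublet in scanpy 1.11.5 (expected rate 0.05) and kept. Clusters used 1982 variable genes, 20 principal components, 15 neighbours and Leiden resolution 0.5, and a name needed 3 raised markers. Shares per library were compared by exact permutation tests (scipy 1.17.1). Counts were summed per library with at least 10 cells (5 for C1q-high cells), filtered with filterByExpr, scaled with TMM and tested in edgeR 4.0.16 by its quasi-likelihood F-test (Benjamini-Hochberg adjusted p under 0.05), with DESeq2 1.42.0 as an alternative. Comparisons with Kupffer cells and monocytes had the library as a block. Fits were tested on simulated data. Named genes were at most the 10 largest rises and falls with at least 50 CPM in 1 group and no overlap, or the same sign in every library, plus fixed genes and 2 to 4 members of each list; marker genes of other cells were left out. Intervals are exact at 95%, and floors are 3 counts. WT, YAP3d and YAP7d replicate numbers only name samples. The YAP transgene was not analysed here.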

Additional observations from a re-analysis of the deposited data

Results flagged for a closer look

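Among C1q-high cells the change from WT to YAP7d differed from that in C1q-high Kupffer cells for 2 of 4321 genes (0.0463%), by edgeR's test of the interaction, and both rest on WT replicate 2. Pmp22, a membrane protein gene, had a log2 interaction of -4.78 ± 0.66 (adjusted p = 0.0116). It was at 404 CPM (29 UMIs) in the C1q-high gated cells of WT replicate 2 and at 5.63, 0 and 5.58 CPM in YAP7d, while C1q-high Kupffer cells went from 140.5 CPM to 47.7, 80.3 and 38.5 CPM. For Gm12840 the interaction was -3.29 ± 0.44 (adjusted p = 0.0116), with 724 CPM in WT replicate 2 and 45.03, 5.98 and 16.7 CPM in YAP7d, and 289.6 CPM against 128, 62.2 and 66.4 CPM in C1q-high Kupffer cells. WT replicate 2 has 8 such cells, and both genes were singled out by this test alone. Over the whole gate neither passed.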

How the results depend on the processing

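Shares rest on few libraries. Leaving out 1 library at a time, the difference in the share of all cells ranged from -0.398 to 1.79 points for YAP3d minus WT (negative without YAP3d replicate 2), 6.11 to 9.76 for YAP7d minus WT and 5.001 to 8.84 for YAP7d minus YAP3d. For the share among C1q-positive cells the ranges were -5.79 to 7.77 (negative without WT replicate 1 or YAP3d replicate 2), 3.05 to 15.1 and 1.62 to 14.9, and for the mitosis share 39.6 to 47.4 over WT and 29.7 to 37.9 over YAP3d. With thinning, which also leaves out cells under 3000 UMIs, YAP7d minus YAP3d in the share of all cells was 9.56. With Cd5l, Marco and Folr2 also at 0 it fell to 2.24 and YAP7d minus WT to 2.94, and the differences among C1q-positive cells turned to -0.284 (YAP7d minus WT) and -1.27 (YAP7d minus YAP3d). The cause of these turns was not tested.

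Counts of called genes moved more. For YAP7d minus WT they were 386 without a filter, 163 with the replicate block (at least 5 cells), 119 thinned, 2 with a Gm10709 term and 14 to 119 leaving out a library. For YAP3d minus WT they were 8 in DESeq2, 114 unfiltered, 134 with the block, 0 under the stricter gate, 8 thinned, 0 with the Gm10709 term, 31 in C1q-high cells and 0 to 9 leaving out a library. For YAP7d minus YAP3d they were 4, 77 and 16 in DESeq2, unfiltered and with the block, 1 with at least 20 cells, 7 with at least 10 C1q UMIs, 2 thinned, 1 with the Gm10709 term, 5 in C1q-high cells and 0 to 8 leaving out a library.

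Against Kupffer cells 842 genes were called unfiltered, 79 without the block on the library, 240 under the stricter gate, 117 thinned and 161 to 458 leaving out a library. Those of the 433 called genes that were still tested kept their sign under RLE factors, DESeq2, no filter, no block on the library, the stricter gate, thinning, doublet removal and each library left out. Against monocytes the counts were 25 in DESeq2, 115 unfiltered, 1 without the block on the library, 34 in C1q-high cells and 5 to 35 leaving out a library. The interaction of YAP7d and WT gave 50 unfiltered, 1 under the stricter gate and 2 in C1q-high cells, that of YAP7d and YAP3d 1 in DESeq2 and 30 unfiltered, and both 0 leaving out a library. Cyp4b1 and Wnt2 turned to 2.97 and 2.03 with the Gm10709 term, and Ccl2 against Kupffer cells, not called, to -0.37 under the stricter gate and -0.018 without YAP3d replicate 4 (up to 0.39 without YAP3d replicate 2).

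A replicate block with at least 10 cells could not be fitted, as it left no residual degrees of freedom. Replicate numbers could be checked for 1 pair only (YAP3d and YAP7d replicate 2, correlation of deviations -0.133 over 2137 genes), and they only name samples. Settings that left no WT library (at least 20 cells, at least 10 C1q UMIs, without WT replicate 2) gave no value against WT, and thinned monocytes gave none. The C1q-high set, the shorter mitosis list and the block with at least 5 cells were chosen after seeing the data.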
